A study of Mus musculus with 12 samples.

Results

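The 10 genes described here, which microglia are known to raise on activation, were measured across 12 libraries of mouse prefrontal cortex. They were taken by name from a list of activated and disease-associated microglia genes and are Trem2, Tyrobp, Apoe, Axl, Itgax, Ctss, Cst7, Lyz2, Cd68 and Cybb, of 55401 genes in the deposited tables. That list was chosen with earlier results of these data known. All 10 passed the filter on low counts. The mice were male C57BL/6J, 14 weeks old, and an adeno-associated virus (AAV, a gene delivery vector) had been injected into the dorsomedial prefrontal cortex of both hemispheres 4 weeks earlier. Each of the 3 groups holds 4 libraries. The control virus was pAAV.1-CAG-GFP, in which the CAG promoter drives green fluorescent protein (GFP). The overexpression virus, CAG-GFP-P2A-Ttr-WPRE.bgH, adds the transthyretin gene Ttr behind GFP. The knockdown virus, U6-Ttr-shRNA-2-CAG-GFP-WPRE3, carries a short hairpin RNA against Ttr under the U6 promoter beside CAG-driven GFP. All groups therefore received a GFP-expressing AAV and surgery, and no uninjected cortex is compared here. CAG is active in most cell types, so expression was not directed to microglia. The control virus came from another supplier than both Ttr viruses, so virus source and group cannot be told apart.

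Microglia are the resident macrophages of the brain. Their disease-associated state, known from amyloid plaques, depends on the lipid-sensing surface receptor TREM2, which signals through the adaptor TYROBP (DAP12) and its partner kinase SYK. In that state homeostatic genes such as Tmem119 and P2ry12 are lowered while lipid, lysosome and phagocytosis genes such as Apoe, Cst7 and Itgax are raised. The members are not private to microglia: in cortex most Apoe transcript comes from astrocytes, Axl is also made by vascular cells, Itgax marks dendritic cells, and Lyz2 and Cybb are shared by monocytes, neutrophils and border macrophages. In bulk tissue RNA, more cells of a type and more RNA per cell cannot be told apart.

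Library totals were 19879629 to 37166146 counts. The targeted gene followed its labels in the overexpression group, where Ttr had 2121 to 20940 counts against 14 to 200 in control libraries (log2 fold change 7.01 ± 0.81 SE, edgeR adjusted p = 0.0168). In the knockdown libraries Ttr had 3 to 47 counts, and the ranges of control and knockdown overlapped (log2 fold change -1.41 ± 1.16, edgeR adjusted p = 0.936). The knockdown group is therefore named by its label. Genes that define microglia were present in every library, with the 14 homeostatic microglia genes summing to 463 to 750.1 CPM (counts scaled to library size). The labels do not say that the 4 samples of a group came from separate mice, so the p-values reflect sample-to-sample spread that may be technical in part. Overexpression replicate 4 stands apart in what follows: it had the highest CPM of the 12 libraries for all 10 members. Knockdown replicate 4 was the highest of its group for all 10 and among the 2 highest of the 12 libraries for 7.

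No member passed the test in any comparison, although the fitted differences from control were positive for every member with either Ttr virus. The test was edgeR's quasi-likelihood test across 18289 genes with Benjamini-Hochberg adjustment and a threshold of 0.05. Even Ttr, the targeted gene, kept its side of that threshold in overexpression against control in only 16 of 23 alternative settings. A member that did not pass is therefore not shown to be unchanged. In overexpression against control 0 of 10 members passed, where 0.00547% of all tested genes did. The log2 fold change was above 0 for 10 of 10 members against 51.4% of all genes, with a median of 0.53 against 0.0038. As the members were chosen with earlier results known, such counts beside all genes, here and below, are a description. In knockdown against control 0 of 10 passed (0.00547% of all genes), 10 of 10 were above 0 (51.8% of all genes) and the median was 0.24 against 0.0047. In overexpression against knockdown 0 of 10 passed (0.00547% of all genes), 9 of 10 were above 0 (50.1% of all genes) and the median was 0.13. These comparisons share libraries pairwise, so they are given side by side and not as support for each other. DESeq2 and limma-voom likewise put 0 of 10 members past the threshold in each comparison.

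Without overexpression replicate 4, the members' median in overexpression against control was 0.11 with 9 of 10 above 0. The same exclusion took the median of overexpression against knockdown to -0.14 with 3 of 10 above 0. Without knockdown replicate 4, the median of knockdown against control was 0.11 with 8 of 10 above 0. The 2 medians against control, 0.53 and 0.24 with all libraries, were thus lower without the highest library and still above 0. That they fell was fixed in advance, as replicate 4 was the highest of its group for all 10 members. Other exclusions raised them: to 0.70 without overexpression replicate 2 in overexpression, and to 0.39 without knockdown replicate 3 in knockdown. The pooled within-group SD of the members' median log2 level per library was 0.36. That SD includes both libraries left out here and describes single libraries, so it does not measure the error of these medians.

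**Figure D1:**
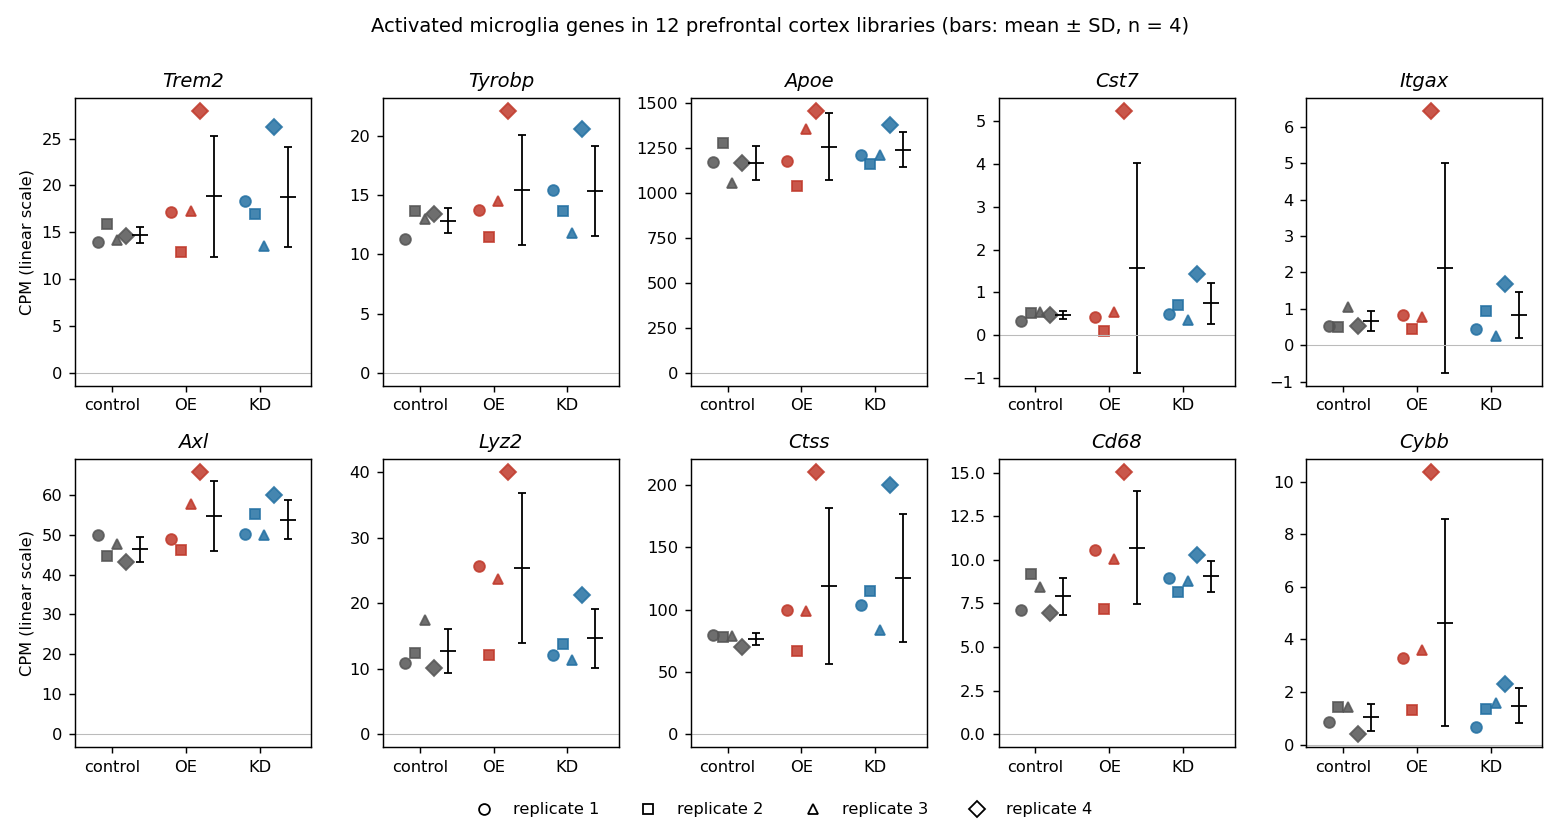
CPM on a linear scale (vertical axis) of each activated microglia gene in the control, overexpression (OE) and knockdown (KD) libraries; each point is 1 library, its shape the replicate number, and the bars give mean ± SD (n = 4), which reach below 0 for Cst7 and Itgax because 1 library is far above the rest. Overexpression replicate 4 is the highest point in all 10 panels, and knockdown replicate 4 is the highest knockdown point in all 10.

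Control cortex gives the members' own levels, which were compared as TPM (abundance scaled by transcript length and library size). Apoe, the lipid-carrying apolipoprotein that binds TREM2, was by far the most abundant, at 2069 ± 133 TPM (SD, n = 4). Ctss, the lysosomal cysteine protease cathepsin S, followed at 141 ± 7.75 TPM. The adaptor Tyrobp stood at 57.3 ± 4.71 TPM and the receptor Trem2 at 33.7 ± 1.53 TPM. The receptor kinase Axl (27.2 ± 1.90 TPM) and the lysozyme gene Lyz2 (24.2 ± 6.51 TPM) overlapped in range and were not separated. Cd68, a lysosomal membrane glycoprotein of phagocytes, had 16.1 ± 2.02 TPM. Far lower were Cst7, which encodes the cathepsin inhibitor cystatin F, at 1.18 ± 0.243 TPM, Cybb, the catalytic subunit of the phagocyte NADPH oxidase, at 0.544 ± 0.265 TPM, and Itgax, the integrin chain CD11c, at 0.409 ± 0.174 TPM. The ranges of Cybb and Itgax overlapped. Apoe alone made up 78.2 to 88.0% of the members' summed TPM, and that share was lowest in overexpression replicate 4 and next lowest, at 79.7%, in knockdown replicate 4.

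The receptor pair had higher means in both Ttr groups than in control and did not pass the test. Trem2 (chromosome 17, 48346401 to 48354147, plus strand, GRCm38) had 14.0, 15.9, 14.2 and 14.6 CPM in control replicates 1 to 4. It had 17.2, 12.9, 17.2 and 28.0 CPM in overexpression replicates 1 to 4. In knockdown replicates 1 to 4 it had 18.3, 16.9, 13.5 and 26.2 CPM. Replicate 4 was the highest of both Ttr groups, while overexpression replicate 2 and knockdown replicate 3 lay below all control libraries. The log2 fold change against control was 0.35 ± 0.22 (SE) in overexpression (edgeR adjusted p = 0.846) and 0.35 ± 0.22 in knockdown (edgeR adjusted p = 0.911). Without the replicate 4 of the group tested these values were 0.094 and 0.14. Tyrobp (chromosome 7, 30413760 to 30417585, plus strand), which carries the signal of TREM2 and of several other myeloid receptors, ranged from 11.3 to 13.7 CPM in control, 11.5 to 22.2 in overexpression and 11.8 to 20.6 in knockdown. Its log2 fold change was 0.26 ± 0.19 in overexpression and 0.25 ± 0.20 in knockdown, or 0.030 and 0.079 without replicate 4 of the group tested. In overexpression against knockdown the log2 fold change was 0.0071 for Trem2 (95% interval -0.46 to 0.48) and 0.0095 for Tyrobp (-0.41 to 0.43), intervals that leave room for a difference in either direction.

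Apoe and Axl, a ligand and a receptor of lipid and cell-debris uptake, had the smallest differences in overexpression against control. Apoe (chromosome 7, 19696109 to 19699188, minus strand) had 1173, 1280.5, 1054 and 1165 CPM in the control libraries. It had 1179, 1039, 1354 and 1458 CPM in overexpression and 1212, 1162, 1211 and 1381 CPM in knockdown. The groups overlapped, and the log2 fold changes against control were 0.11 ± 0.099 and 0.088 ± 0.099. The interval of the overexpression value ran from -0.11 to 0.32. Without replicate 4 of the group tested the values were 0.017 and 0.033. Axl (chromosome 7, 25757273 to 25788705, minus strand), a TAM receptor by which phagocytes bind dying cells through Gas6, ranged from 43.1 to 49.99 CPM in control, from 46.1 to 65.5 in overexpression and from 49.8 to 59.9 in knockdown. Its log2 fold change of 0.23 ± 0.10 in overexpression had an edgeR adjusted p of 0.792, and was 0.12 without replicate 4. In knockdown it was 0.21 ± 0.10. Axl and Apoe also had the smallest errors of the 10 members in that comparison.

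The integrin and the cystatin were low in all libraries but 1. Itgax (chromosome 7, 128129547 to 128150657, plus strand) had 13, 12, 39 and 12 counts in the control libraries, or 0.538, 0.510, 1.06 and 0.521 CPM. In overexpression it had 27, 15, 22 and 145 counts, or 0.824, 0.459, 0.788 and 6.44 CPM, and in knockdown 9, 24, 9 and 33 counts, or 0.437, 0.949, 0.257 and 1.68 CPM. Overexpression replicate 4 thus held 7.81 times the CPM of the next overexpression library, while 2 of the other 3 lay within the control range and replicate 2 just below it. For Itgax the log2 fold change in overexpression was 1.58 ± 0.79 (edgeR adjusted p = 0.821), and without that library it was 0.0035 ± 0.55. Cst7 (chromosome 2, 150570415 to 150578944, plus strand) had 8, 12, 20 and 11 counts in control and 14, 3, 15 and 118 in overexpression. Its knockdown libraries had 10, 18, 12 and 28 counts. In CPM overexpression replicate 4 was at 5.24, which was 9.75 times the next overexpression library, while overexpression replicate 2 was the lowest of the 12 at 0.0917. For Cst7 the log2 fold change was 1.65 ± 0.91 (edgeR adjusted p = 0.836) and -0.45 ± 0.56 without overexpression replicate 4, where its sign turned. Few counts lie behind both genes outside overexpression replicate 4: 14 counts in a library have an exact 95% Poisson interval of 7.65 to 23.5, for counting error only. In overexpression replicate 4 that interval was 97.7 to 141 for Cst7 and 122 to 171 for Itgax.

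The lysosomal genes differed most in Lyz2 and Ctss, with a different order of groups for each. Lyz2 (chromosome 10, 117277331 to 117282321, minus strand), the lysozyme of myeloid cells, had 10.9, 12.4, 17.5 and 10.1 CPM in control. It had 25.8, 12.1, 23.7 and 40.0 CPM in overexpression, where replicates 1, 3 and 4 were above all control libraries and replicate 2 was not. Knockdown libraries had 12.2, 13.8, 11.3 and 21.3 CPM, of which only replicate 4 was above the control range. The log2 fold change in overexpression was 0.98 ± 0.31 (edgeR adjusted p = 0.626), and 0.67 ± 0.27 without replicate 4. In knockdown it was 0.19 ± 0.31, and -0.046 without knockdown replicate 4. Against knockdown, the overexpression libraries differed by 0.80 ± 0.31 (edgeR adjusted p = 0.967), and 0.49 without overexpression replicate 4. Its near-identical neighbour Lyz1, the Paneth cell lysozyme, had 0 to 6 counts in any library. How reads shared by the pair were counted is not given, so the Lyz2 value may include some of them.

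Ctss (chromosome 3, 95526786 to 95556403, plus strand), which also trims the invariant chain of MHC class II, had 79.6, 77.9, 78.6 and 69.7 CPM in control. In overexpression it had 100.004, 66.9, 98.7 and 210 CPM, and in knockdown 104, 115, 83.7 and 199 CPM. All 4 knockdown libraries were above all 4 control libraries. It was the single member without overlap in that comparison, 1 of 10, where 2.78% of all genes had every knockdown library above every control library. The same held for 3 of the 14 homeostatic microglia genes and 4 of 9 Fc and complement receptors. No member had all overexpression libraries above all control libraries (1.88% of all genes) or above all knockdown libraries (1.23%). The log2 fold change of Ctss was 0.71 ± 0.31 in knockdown (edgeR adjusted p = 0.863) and 0.63 ± 0.31 in overexpression (edgeR adjusted p = 0.817). Without knockdown replicate 4 the knockdown value was 0.40 ± 0.28, and without overexpression replicate 4 the overexpression value was 0.20 ± 0.24. Between the Ttr groups Ctss differed by a log2 value of -0.077 (95% interval -0.74 to 0.59). Cd68 (chromosome 11, 69664213 to 69666153, minus strand) ranged from 6.94 to 9.17 CPM in control, 7.18 to 15.01 in overexpression and 8.14 to 10.3 in knockdown. In overexpression its log2 fold change was 0.43 ± 0.18 (edgeR adjusted p = 0.789), and 0.21 ± 0.14 without replicate 4.

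Cybb had the largest fitted difference and the smallest p of the members, again without passing. The gene (chromosome X, 9435252 to 9487771, minus strand) encodes gp91phox, the subunit that passes electrons to oxygen to make superoxide in phagocytes. Its counts were 21, 34, 53 and 9 in control, 108, 43, 100 and 233 in overexpression and 14, 34, 55 and 45 in knockdown. In CPM, control libraries held 0.870, 1.44, 1.45 and 0.390, overexpression libraries 3.30, 1.31, 3.58 and 10.3, and knockdown libraries 0.679, 1.34, 1.57 and 2.30. Overexpression replicates 1, 3 and 4 were above every control and every knockdown library, and replicate 2 fell within both ranges. The log2 fold change against control was 2.10 ± 0.56 (edgeR adjusted p = 0.567), and it was 1.35 ± 0.44 (adjusted p = 0.921) without replicate 4. Against knockdown it was 1.63 ± 0.55 (edgeR adjusted p = 0.967), and 0.88 without overexpression replicate 4. In knockdown against control it was 0.47 ± 0.60, with an interval of -0.83 to 1.77, and 0.21 without knockdown replicate 4. In all, 4 members (Cybb, Lyz2, Cd68 and Axl) had an unadjusted edgeR p below 0.05 in overexpression against control, all higher, against 6.26% of all genes in either direction and 4.58% higher. Without overexpression replicate 4 there were 2, Cybb and Lyz2. In knockdown against control there was 1 (Ctss, higher), against 5.68% and 3.85%, and 0 without knockdown replicate 4. In overexpression against knockdown there were 2 (Cybb and Lyz2, both higher), against 5.1% and 2.78%, and 0 without overexpression replicate 4. The share of all genes was not computed for the fits with a library left out, so the counts from those fits stand without one.

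**Figure D2:**
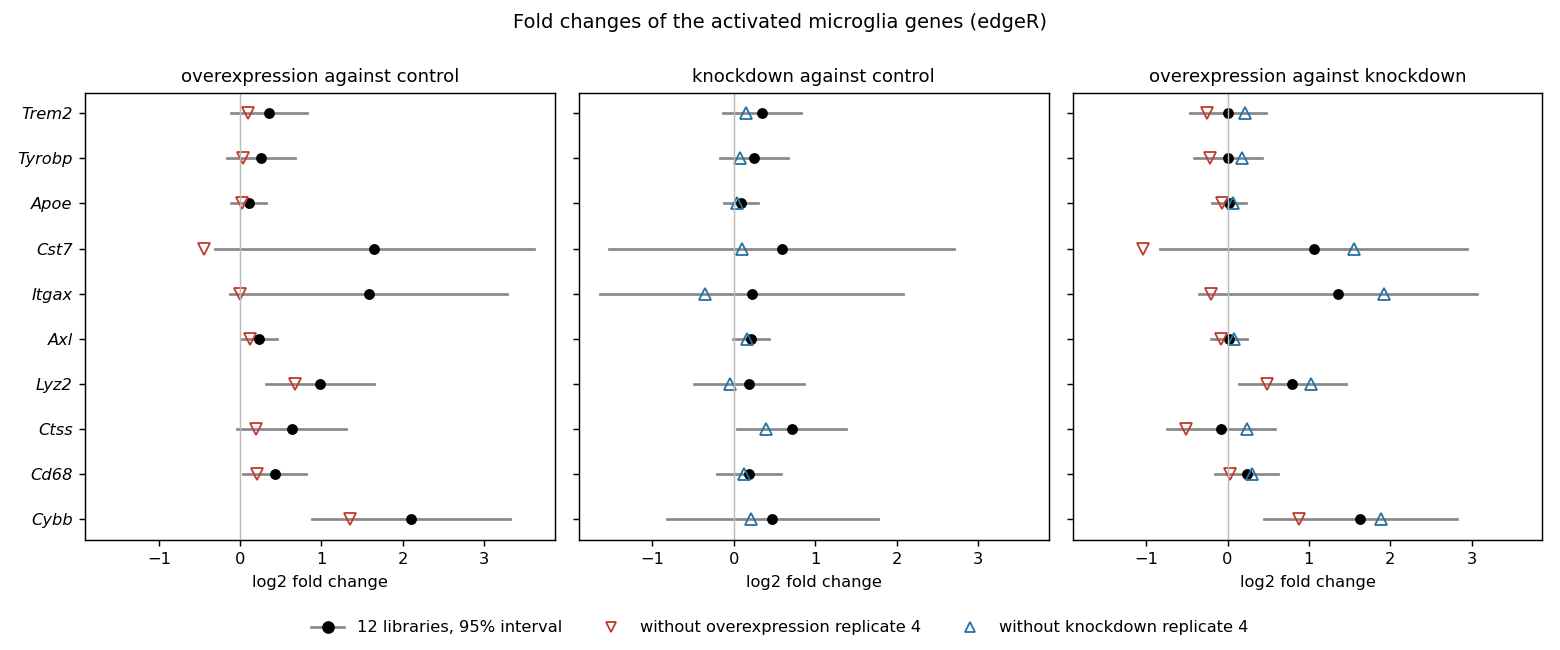
Log2 fold change (horizontal axis) of each activated microglia gene in 3 comparisons; black points and grey lines give the edgeR value with its 95% interval from all 12 libraries, red and blue triangles the value without overexpression or knockdown replicate 4. Without overexpression replicate 4 the overexpression value of Itgax sits at 0.0035 and that of Cst7 at -0.45, while Cybb remains at 1.35 and Lyz2 at 0.67.

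Promoter sequences are shown for the member with the smallest p in each comparison with control, Cybb and Ctss, and for Cst7, whose value rested most on a single library. Each is the 250 bases before the gene's start in the RefSeq promoter table (build GRCm38.p6), read on the gene's strand. For Cybb that start lies inside the gene span given above, downstream of the span's 5′ end, so the RefSeq start used here is not the end of the GENCODE span. Capitals mark matches, on either strand, to an interferon-stimulated response element (ISRE, searched as GAAA, any 2 bases, GAAA) or to the core bound by the myeloid factor PU.1 (searched as AGGAAGT). The motifs were chosen with these data known. The Cybb window lies at chrX:9469325-9469574 (minus strand), the Ctss window at chr3:95526536-95526785 (plus strand) and the Cst7 window at chr2:150570165-150570414 (plus strand).
Cybb: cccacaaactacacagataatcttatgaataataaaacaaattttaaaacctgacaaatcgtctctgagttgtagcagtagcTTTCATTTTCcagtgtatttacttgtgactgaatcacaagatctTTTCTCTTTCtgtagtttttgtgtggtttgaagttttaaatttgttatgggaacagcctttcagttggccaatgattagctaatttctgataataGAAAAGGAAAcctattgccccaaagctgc
Ctss: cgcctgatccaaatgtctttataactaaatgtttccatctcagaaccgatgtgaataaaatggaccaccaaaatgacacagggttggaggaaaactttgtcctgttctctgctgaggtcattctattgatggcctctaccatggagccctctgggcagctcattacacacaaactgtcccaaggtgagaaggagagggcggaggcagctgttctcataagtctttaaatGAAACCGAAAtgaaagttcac
Cst7: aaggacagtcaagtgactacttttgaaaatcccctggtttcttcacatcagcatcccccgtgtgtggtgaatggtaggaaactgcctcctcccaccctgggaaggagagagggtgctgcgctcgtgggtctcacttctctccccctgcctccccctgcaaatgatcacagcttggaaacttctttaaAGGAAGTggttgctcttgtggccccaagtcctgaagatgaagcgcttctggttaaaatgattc
The Cybb window held 3 ISRE matches and the Ctss window 1, while the Cst7 window held 1 PU.1 match. No 2 matches overlapped. Of the 9 members with an entry in the table, 2 held an ISRE match, against 2.98% of 32851 promoter windows. A PU.1 match was found in 2 of the 9, Cst7 and Lyz2, against 7.69% of windows, and an E-box (searched as CACGTG) in 0 of the 9, against 6.02%. Tyrobp was not in the table. A match describes letters in these windows and is no measurement of binding.

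The members were next set against the homeostatic microglia genes. In log2 terms relative to the mean of the 14 homeostatic genes, all 10 members had a higher mean in overexpression than in control. The median difference was 0.32 and the smallest 0.0048, for Apoe. Within overexpression the SD was 1.85 for Cst7 and 1.38 for Itgax. This scale was not read without overexpression replicate 4. Only Cybb did not overlap between the groups on this scale, at a difference of 1.77. In CPM its ranges overlapped. The share of all genes without overlap was not computed on this scale. In knockdown 6 of 10 were higher than in control, the median difference was 0.022, and only Ctss did not overlap, at 0.44. The homeostatic genes themselves had log2 fold changes above 0 for 12 of 14 genes in overexpression (median 0.15) and 13 of 14 in knockdown (median 0.20), with 0 called. Tmem119, the canonical homeostatic marker, averaged 28.3 ± 2.41 CPM in control, 32.0 ± 9.23 in overexpression and 37.6 ± 8.82 in knockdown. Fcrls pointed the other way in overexpression, at 20.9 ± 4.24 against 26.8 ± 2.46 CPM (log2 fold change -0.36 ± 0.13, edgeR adjusted p = 0.707). As a mean of centred log2 CPM, the members stood at 1.36 in overexpression replicate 4 and 0.58 in knockdown replicate 4, and the homeostatic genes at 0.29 and 0.41 in the same libraries. As a median over the members, the values in these libraries were 0.90 and 0.49. The libraries that were high in the members were thus also the highest in homeostatic genes, in the opposite order.

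**Figure D3:**
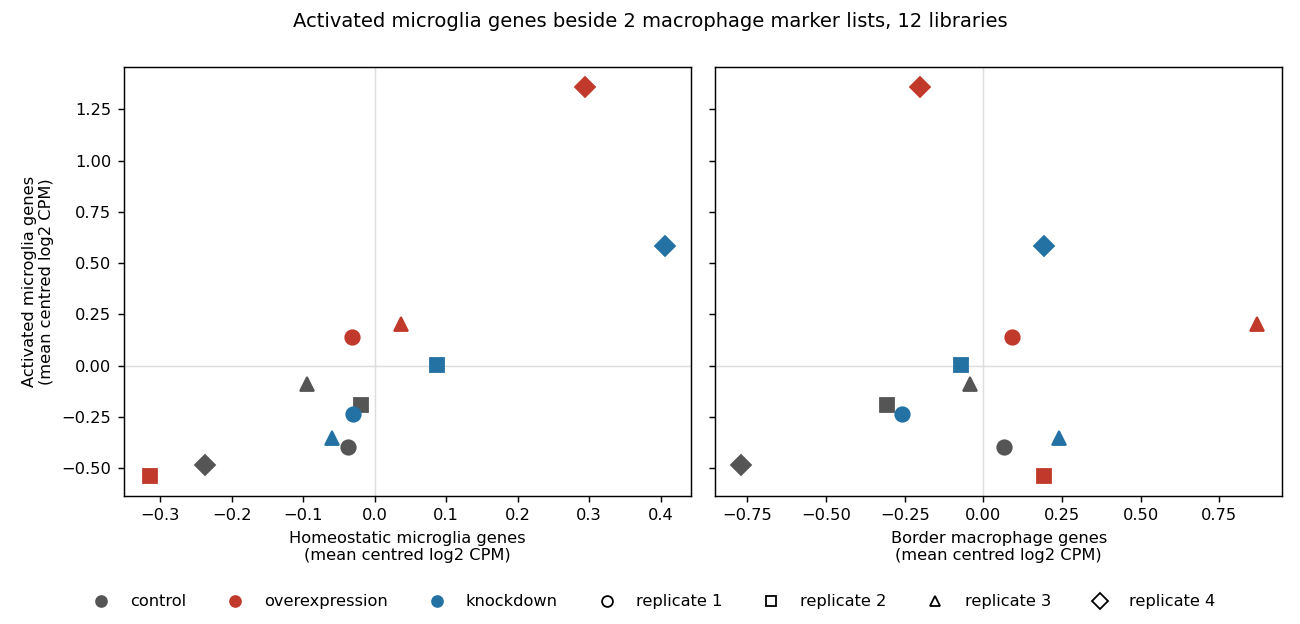
Mean centred log2 CPM of the 10 activated microglia genes (vertical axis) against that of the homeostatic microglia list (left) and the border macrophage list (right), 1 point per library, colour for group and shape for replicate number. Overexpression replicate 4 stands at 1.36 on the vertical axis with 0.29 for homeostatic genes and -0.20 for border macrophage genes, and overexpression replicate 3 has the highest border macrophage mean, 0.87.

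Genes around the receptor pair and other genes of the activated state were read from lists chosen with earlier results known. Of 13 tested genes on the list around TREM2 and TYROBP signalling, 12 had a log2 fold change above 0 in overexpression (median 0.31). In knockdown 11 did (median 0.13), and 0 passed. Clec7a, the beta-glucan receptor dectin-1, was read with this list as a well-known marker of plaque-associated microglia, not as a partner of the pair. It averaged 3.02 ± 3.02 CPM in overexpression, 0.931 ± 0.310 in control and 0.978 ± 0.494 in knockdown. Its log2 fold change was 1.63 ± 0.57 in overexpression against control (edgeR adjusted p = 0.688), and 0.67 without overexpression replicate 4. Of 27 other disease-associated microglia genes tested, 22 were above 0 in overexpression (median 0.10) and 17 in knockdown (median 0.074). B2m, the light chain of MHC class I, is on that list: it averaged 73.0 ± 13.7 CPM in control, 147 ± 86.5 in overexpression and 162 ± 100 in knockdown, where all knockdown libraries were above control (log2 fold change 1.15 ± 0.41, edgeR adjusted p = 0.808, and 0.64 without knockdown replicate 4). Over all tested genes the medians were 0.0038 and 0.0047.

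Lists around single members were read in the same way. Of the 6 other NADPH oxidase subunits, 5 were above 0 in overexpression (median 0.47), among them Ncf4 (log2 fold change 0.86 ± 0.37, edgeR adjusted p = 0.792) and Rac2 (0.69 ± 0.32), whose overexpression libraries all lay above control. Cyba, the membrane partner of Cybb, had a log2 fold change of 0.53 ± 0.27. Without overexpression replicate 4 these values were 0.43 for Ncf4, 0.21 for Rac2 and 0.21 for Cyba. All 9 Fc and complement receptors were above 0 in overexpression (median 0.42) and 8 of 9 in knockdown (median 0.39). The activating Fc receptor Fcgr4 averaged 0.342 ± 0.0938 CPM in control, 1.91 ± 2.41 in overexpression and 0.917 ± 0.525 in knockdown. Of the 3 other beta-2 integrin genes tested, all were above 0 in both Ttr groups. Itgal, the alpha chain of LFA-1, averaged 0.520 ± 0.171 CPM in control and 2.33 ± 2.12 in overexpression, without overlap (log2 fold change 2.09 ± 0.52, edgeR adjusted p = 0.527), and the log2 fold change was 1.26 without overexpression replicate 4. LFA-1 is also a general marker of blood leukocytes. None of the named genes passed the test.

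The protease, TAM receptor and lipid lists follow. Of 14 other cathepsins and cystatins, 10 were above 0 in each Ttr group (medians 0.061 and 0.059). Ctsc, which activates serine proteases of immune cells, averaged 8.51 ± 1.61 CPM in control and 15.4 ± 6.90 in overexpression, and Ctsh 9.73 ± 0.542 and 16.5 ± 5.99. Of the 4 other TAM receptors and ligands, 3 were above 0 in both (medians 0.12 and 0.059), with Mertk, the main TAM receptor of microglia, at 42.1 ± 2.37 CPM in control, 47.9 ± 1.82 in overexpression and 47.0 ± 5.95 in knockdown. For 14 other apolipoprotein and lipid efflux genes the split was 8 above and 6 below 0 in overexpression (median 0.017) and 9 and 5 in knockdown (median 0.015).

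Markers of several other cell types had their highest values in the overexpression group. The 12 border macrophage genes, which mark perivascular and meningeal macrophages, summed to 20.6 to 30.2 CPM in control, 30.7 to 45.8 in overexpression and 25.1 to 31.7 in knockdown. All 11 tested were above 0 in overexpression (median 0.71), and Mrc1, the mannose receptor, averaged 3.23 ± 0.929, 7.004 ± 1.501 and 3.85 ± 0.572 CPM in the 3 groups. Mural and meningeal genes summed to 166 to 226 CPM in control, 242 to 349 in overexpression and 194 to 226 in knockdown, with 12 of 12 above 0 in overexpression (median 1.08). Lymphocyte genes summed to 3.82 to 12.9, 4.7997 to 28.1 and 3.83 to 14.3 CPM. The highest lymphocyte sum was that of overexpression replicate 4, and the next, 19.4, that of overexpression replicate 1. Cd8a, the marker of cytotoxic T cells, averaged 0.0735 ± 0.0208 CPM in control and 1.13 ± 1.57 in overexpression. Of the 14 monocyte and neutrophil genes, Ly6g, which defines neutrophils, was at 0 in all 12 libraries, and Chil3, Retnlg, Camp, Ngp and Cxcr2 never exceeded 3 counts. The list summed to 50.2 to 71.0 CPM in control, 72.7 to 88.5 in overexpression and 47.8 to 81.1 in knockdown. Only 4 of its 14 genes were tested. Of that sum, the fibronectin gene Fn1 alone averaged 36.3 CPM in control and 57.1 in overexpression. Ccr2, a monocyte chemokine receptor, averaged 1.07 CPM in overexpression and 0.456 in knockdown. Dendritic cell genes, of interest for Itgax, summed to 283 to 311, 264 to 316 and 280.2 to 325 CPM, with overlapping ranges. Only 6 of these 11 genes were tested. Siglech is on this list and on the homeostatic microglia list, so the sum is not specific to dendritic cells. Choroid plexus genes summed to 4.72 to 6.12, 5.29 to 14.5 and 5.77 to 10.8 CPM, astrocyte genes to 3917 to 4830.0, 4379.7 to 4962 and 4238 to 5116 CPM, and neuron genes to 7421 to 8308, 6998 to 9055 and 6993 to 7902 CPM. The part of these cell types in the members' values was not tested.

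Genes whose pattern was most like the members' were found by Pearson's r between log2 CPM and the mean of the 9 members that averaged at least 1 CPM, over 12 libraries and 15872 genes. The 6 closest were Gbp2 (r = 0.982, Spearman's rho = 0.951), Irf1 (0.978, 0.923), Fcgr4 (0.972, 0.916), Gbp4 (0.968, 0.867), Tgtp2 (0.968, 0.944) and Fcgr2b (0.967, 0.888). Gbp2 ranged from 3.08 to 42.6 CPM, with 42.6 in overexpression replicate 4 and 16.3 in knockdown replicate 4. Irf1 was highest in the same library, at 22.7 CPM of a range from 6.03, as was Gbp4, at 27.2 CPM of a range from 1.39. Over the 10 libraries without these 2, r was 0.941 for Gbp2, 0.931 for Irf1, 0.880 for Fcgr4, 0.875 for Gbp4, 0.943 for Tgtp2 and 0.872 for Fcgr2b. These values describe likeness among libraries that share groups and scaling.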

How the data were processed

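The authors deposited gene counts, whole numbers that were not normalized, for 12 poly(A) libraries made from 500 ng of RNA with adaptors carrying unique molecular identifiers, per the labels' protocols. Bcl2fastq 2.20.0.422, UMI-tools, featureCounts, DESeq2 and GRCm38 (mm10) appear in the submitters' processing notes without their roles. Not given in the sources used here: aligner, annotation release, strand setting and use of the identifiers. The deposited TPM values equalled the authors' counts divided by 1 length per gene and scaled (100% of values of 15172 genes, to 0.01 in log2). Variance-stabilised values that the authors deposited are in log2 units, no lower than 7.10, and served only as an alternative.

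Symbols were found for 55141 of 55401 identifiers; those without one (260) held 0.00474% of counts. Gene positions are from GENCODE on GRCm38. Counts were tested with edgeR 4.0.16 (R 4.3.3): TMM factors, the expression filter by group (18289 genes left), 3 group means in 1 fit, quasi-likelihood tests, two-sided, Benjamini-Hochberg adjustment over all genes tested. CPM values use TMM factors, and log2 CPM a prior count of 2. Replicates of a group differed by more than sampling noise (chi-square per degree of freedom 5.44 to 28.7 over all pairs). Replicate numbers were not used to pair samples. Alternatives were RLE scaling, no filter or a stricter one (1 CPM in 4 libraries), DESeq2 1.42.0, limma 3.58.1 (voom), log2(TPM + 0.1) and log2(TPM + 1), fits of only the 2 groups compared, robust dispersions, the replicate number as a block and each library left out in turn. The steps were tested on simulated data. Figures were drawn with matplotlib 3.10.9.

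The members and gene lists were chosen with earlier results of these data known. All members are named. From each list a gene is named that passed, or that was among the up to 4 with the smallest p in any comparison. Not all such genes are named, and those named were picked with their values seen. Ttr is named as the targeted gene, Lyz1 as the copy of Lyz2, and 6 genes for their likeness to the members. Counting intervals cover counting error only. Behaviour was not analysed here.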

Additional observations from a re-analysis of the deposited data

Results flagged for a closer look

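Of 30 sets of 4 libraries (10 members in 3 groups), 3 held a library far from the others, by a gap to its nearest neighbour that exceeded Dixon's 95% limit as a share of the whole range. Chance flags about 1 such set in 20. Itgax stood at 6.44 CPM in overexpression replicate 4, with a gap of 0.939 times the range. Cst7 stood at 5.24 CPM in the same library, with a gap of 0.913 times the range. Itgax also stood at 1.06 CPM in control replicate 3, from 39 counts, with a gap of 0.948 times the range. The other 8 members had overexpression replicate 4 as the highest of the group without reaching that limit.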

How the results depend on the processing

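Over the alternatives, 654 of 684 member values kept their direction and side of the threshold, 30 changed sign and 0 passed. Ttr in overexpression against control kept its side of the threshold in 16 of 23 alternatives. Its log2 fold change stayed above 0 in all of them, at 4.87 or more. The genes passing across the whole table were few and moved with the setting. In overexpression against control there were 20 with no filter on low counts, 39 with DESeq2, and 0 with limma-voom, with only the 2 groups compared and with robust dispersions. In knockdown against control there were 22 with no filter, 43 with DESeq2, 2 with only the 2 groups compared, 0 with the replicate block and 0 with log2(TPM + 0.1) or log2(TPM + 1). In overexpression against knockdown there were 4 with DESeq2, 0 with limma-voom, 0 with robust dispersions and 2 with the replicate block. Leaving out each library in turn gave 0 to 4, 0 to 10 and 0 to 2 genes. The cause of these shifts was not tested.

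The members' median log2 fold change ran from 0.11 (without overexpression replicate 4) to 0.70 (without overexpression replicate 2) in overexpression against control. It ran from 0.11 (without knockdown replicate 4) to 0.39 (without knockdown replicate 3) in knockdown against control. For overexpression against knockdown it ran from -0.14 (without overexpression replicate 4) to 0.27 (without overexpression replicate 2). In the variance-stabilised values these medians were 0.21, 0.12 and 0.052, and with limma-voom 0.31, 0.20 and 0.011. Signs turned for Itgax in knockdown against control with limma-voom (-0.11) and the replicate block (-0.029). In overexpression against knockdown they turned for Trem2 with limma-voom (-0.00030), the replicate block (-0.0012) and variance-stabilised values (-0.0052), for Tyrobp with the last (-0.0016), and for Cst7 with limma-voom (-0.21) and log2(TPM + 0.1) (-0.016). With single libraries left out, Cst7 ran from -0.45 to 2.06 in overexpression against control. In knockdown against control Itgax ran from -0.35 to 0.60, Lyz2 from -0.046 to 0.39 and Ttr from -2.03 to 0.60. In overexpression against knockdown Trem2 ran from -0.25 to 0.21, Tyrobp from -0.21 to 0.18, Apoe from -0.065 to 0.099, Cst7 from -1.03 to 1.55, Itgax from -0.21 to 1.93, Axl from -0.081 to 0.095 and Ctss from -0.51 to 0.24.

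Same-numbered libraries did not deviate together: 2 of 12 pairs had a correlation above 0.1 (range -0.34 to 0.16) and 1 of 12 libraries correlated best with its own number. The labels do not say that replicate numbers pair samples, and these correlations cannot show how samples were collected. The replicate block was thus only an alternative, and it put no member past the threshold. Depth limits Cst7, Itgax and Cybb most, each with counts below 10 in at least 1 library.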
